A study of Mus musculus with 6 samples.

Results

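The genes described here are 35 interferon-stimulated genes, chosen by name from a list of genes known to be induced by type I interferon, without the guanylate-binding protein, immunity-related GTPase and PYHIN families. All 35 were found by gene name among the 34745 genes of the table, each once. They were read in bulk RNA from colon tissue of 6 libraries. The knockout libraries, replicates 1 to 3, came from age-matched male mice labelled TRPC-hepta knockout, in which, as the series title has it, all 7 TRPC proteins are absent; these are cation channels that let calcium into cells. The control libraries, replicates 1 to 3, came from age-matched male mice labelled TRPC-hepta control. All mice of both groups had received DSS (dextran sulfate sodium) for 6 days, a sulfated sugar polymer that damages the gut lining and serves as a colitis model. Untreated mice were not analysed here. With the strain, the alleles and the animals behind each library not given in the sources used here, p-values here cover just the variation among these samples, which may be technical.

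Type I interferons are secreted proteins that signal through a receptor made of Ifnar1 and Ifnar2. The kinases Jak1 and Tyk2 then activate Stat2, which joins Irf9 in a complex that binds a DNA element called ISRE (interferon-stimulated response element) near target genes. The targets include sensors of foreign nucleic acid, enzymes that degrade or modify RNA, proteins that block viral entry, translation or release, and inhibitors that damp the response. In the intestine, epithelial cells and immune cells can both run this programme, and epithelial cells also respond to type III interferon, which uses the same transcription factors.

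The promoters of the members were compared first. The ISRE was not itself used to choose the genes, but induction by type I interferon, which acts through it, was. An excess of ISRE cores over all promoters therefore describes the list and is no independent check of it. The core searched was a GAAA block, any 2 bases and another GAAA block, on either strand, with overlapping matches counted, in the 300 bases from 250 before to 50 after the annotated start (RefSeq, GRCm38.p6). Of the 25 members with a promoter in that table, 13 (52%, 95% Wilson interval 33.5 to 70%) held at least 1 core, against 3.99% of 27025 gene symbols. With CT required after the second block, the shares were 28% and 0.303%. The 13 members held 21 matches, 12 of them on the gene's own strand, from 222 bases before the start to 33 bases after it. The stretches below show the cores in capitals with 10 flanking bases in lower case (8 on one side for Ifih1), each read on the strand that carries the core. They were chosen because they cover the members with the most matches, pairs of neighbouring genes and members with other functions.

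Ifit1, chr19:34640794-34640823: tcagcagtgaGAAACTGAAActgagactgg

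Ifit3, chr19:34583363-34583392: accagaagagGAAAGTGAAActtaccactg

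Ifit3b, chr19:34607759-34607788: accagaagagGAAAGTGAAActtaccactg

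Oas1a, chr5:120907520-120907549: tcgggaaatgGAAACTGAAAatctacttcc

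Oas1g, chr5:120887606-120887635: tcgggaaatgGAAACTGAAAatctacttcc

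Rsad2, chr12:26456553-26456582: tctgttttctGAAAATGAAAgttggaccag

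Bst2, chr8:71537577-71537606: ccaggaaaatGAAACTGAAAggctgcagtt

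Stat2, chr10:128270266-128270295: ctagggaaagGAAACTGAAAccagggtgcg

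Ifih1, chr2:62646206-62646233: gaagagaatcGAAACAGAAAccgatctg

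The promoter of Isg15 had the most matches of any member. Its 3 cores overlap and form the single stretch of capitals below, which begins 78 bases before the start, in the window chr4:156200769-156201068 on the minus strand.

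Isg15: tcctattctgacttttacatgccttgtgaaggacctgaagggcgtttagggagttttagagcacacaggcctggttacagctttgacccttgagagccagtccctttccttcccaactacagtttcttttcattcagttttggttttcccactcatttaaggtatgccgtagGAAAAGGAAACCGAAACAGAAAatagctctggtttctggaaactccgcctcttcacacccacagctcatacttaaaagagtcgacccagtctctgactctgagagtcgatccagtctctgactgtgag

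The stretches printed for Ifit3 and Ifit3b are the same sequence, as are those for Oas1a and Oas1g. The Wilson interval above takes each gene as independent, which does not hold for such pairs. These pairs also resemble each other in their transcripts. Of the 50-base words in the longest Ifit3 transcript, 51.2% occur in Ifit3b, and of those in Oas1a 57.6% occur in Oas1g (GENCODE M21). With the handling of reads that match more than 1 gene not given in the sources used here, values of these 4 genes are uncertain. A match is a stretch of letters, and binding was not measured. The members with a core had a median log2 fold change, knockout over control, of -0.74, with 12 of 13 negative. The 12 members whose promoter held none had a median of -0.60, with 12 of 12 negative. The 10 members with no promoter in that table had a median of -0.58, with 9 negative. Since 33 of all 35 members were negative, any split of the list would give mostly negative values. The shared sign therefore says nothing about the ISRE.

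**Figure D1:**
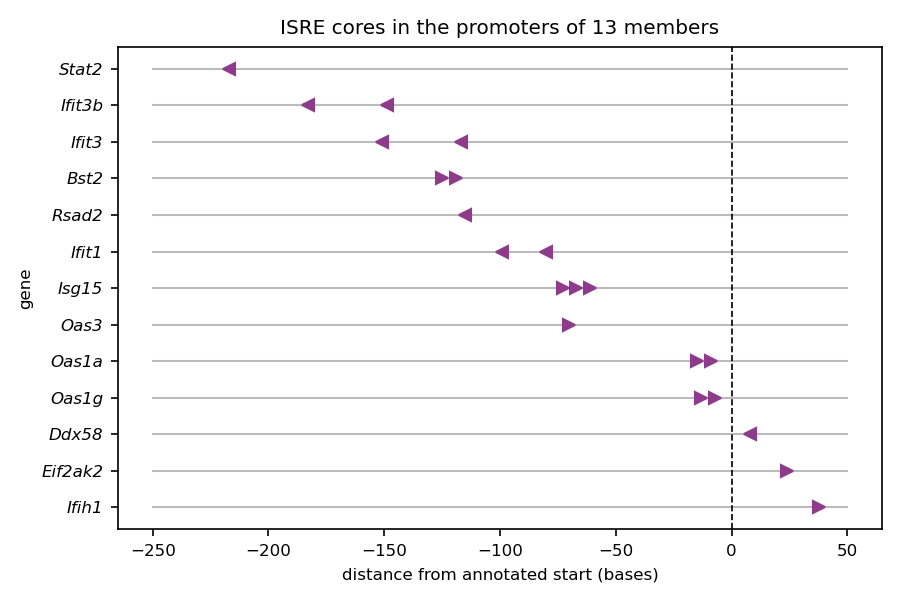
Positions of ISRE cores in the promoters of the 13 members that hold one. The x axis is the distance in bases from the annotated start (dashed line), each row is a gene, and each triangle is a core pointing right on the gene's own strand and left on the opposite strand. The 21 matches run from 222 bases before the start in Stat2 to 33 bases after it in Ifih1.

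The libraries held 13816295 to 15505327 counted reads in the knockout group and 16819662 to 17584992 in the control group. Knockout replicate 3 could be written almost wholly as a mixture of the other knockout libraries. Over 15800 genes, 0.497 times the replicate 1 counts added to 0.594 times the replicate 2 counts matched it with a median squared deviation of 1.19 times counting noise, against 3.08, 3.20 and 4.23 for control replicates fitted in the same way. Over the 35 members the median was 1.74 times counting noise for knockout replicate 3, against 25.4, 21.1 and 102 for control replicates 1, 2 and 3. Knockout replicates 1 and 2, fitted in the same way, gave 1.55 and 1.73 over the members, and 1.31 and 2.17 over the genes fitted. The close fit thus held for all knockout libraries. The weights were -1.13 and 1.91 for knockout replicate 1 and -0.43 and 1.32 for knockout replicate 2, so only replicate 3 had both weights positive. In 31 of 35 members, replicate 3 lay between replicates 1 and 2, and the exceptions were Ifit3, Bst2, Zbp1 and Trim25. By the submitters' design statement the profiles were made in duplicate, but 3 samples a group are listed, so whether the knockout group holds 3 independent samples cannot be told from these sources. SDs, intervals and p-values here take n as 3 in each group, and the main counts of members are also given without knockout replicate 3. Whole-gene counts did not check the knockout labels: Trpc1 had 9.97, 6.57 and 7.48 CPM (scaled read counts relative to library size) in the libraries labelled knockout, against 11, 8.39 and 7.54 CPM in those labelled control, with the deleted parts of the genes not given in the sources used here. Epithelial markers were abundant in every library, with Krt8 at 1872 to 4319 CPM in the knockout and 3674 to 4398 CPM in the control.

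The interferon-stimulated genes tended to lower values in the knockout colons, but no single member passed the test. Of 35 members, 33 had negative and 2 positive log2 fold changes, with a median of -0.63 and a range from -1.43 (Oasl1) to 0.25 (Bst2). Over all 15819 genes tested the median was 0.01, and 48.4% were negative. After Benjamini-Hochberg adjustment over all genes of edgeR's quasi-likelihood test, 0 of 35 members were past 0.05, where 0.670% of all genes were called lower and 1.09% higher. The smallest adjusted p was 0.0511, for Cmpk2. At an unadjusted p under 0.05, 20 members were lower and 0 higher, against 6.50% of all genes lower. DESeq2 called 8 members lower and 0 higher (Cmpk2, Ifit2, Ifit3, Ifit3b, Mx1, Mx2, Oasl1 and Rsad2), against 3.06% of all genes lower. All 35 members passed the filter on low counts, with 159 to 13415 reads in a library.

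Without knockout replicate 3, edgeR again called 0 members, with 10 lower at an unadjusted p under 0.05 against 3.75% of all genes. That unadjusted count was 12 without knockout replicate 1 (7.09% of all genes), 9 without control replicate 1 (4.36%), 8 without control replicate 2 (4.49%) and 13 with the replicate number as a block (5.36%). It was 22 without knockout replicate 2 and 21 without control replicate 3, for which the share of all genes was not computed. DESeq2 without knockout replicate 3 called 2 members lower, Cmpk2 and Rsad2, against 1.37% of all genes.

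The direction rested on some libraries more than others. Relative to the control mean, the median member stood at -0.86, -0.32 and -0.56 log2 units in knockout replicates 1, 2 and 3, against 0.18, 0.15 and -0.33 in control replicates 1, 2 and 3. Control replicate 3 was thus at the level of knockout replicate 2. Knockout replicate 1 was the lowest of the 6 libraries for 28 members, and control replicate 1 or 2 the highest for 31. Control replicate 3 was the lowest control for 29 of 35 members, compared with 35.3% of all genes. In 12 members every knockout library was below every control library, against 10.4% of all genes, and in 0 members every knockout library was above. In the other 23 the groups overlapped. The spread within a group was similar in both, since the highest library was a median of 1.55 times the lowest among knockout libraries and 1.61 times among control libraries. Over 8742 genes with at least 150 reads in every library these ratios were 1.38 and 1.21.

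**Figure D2:**
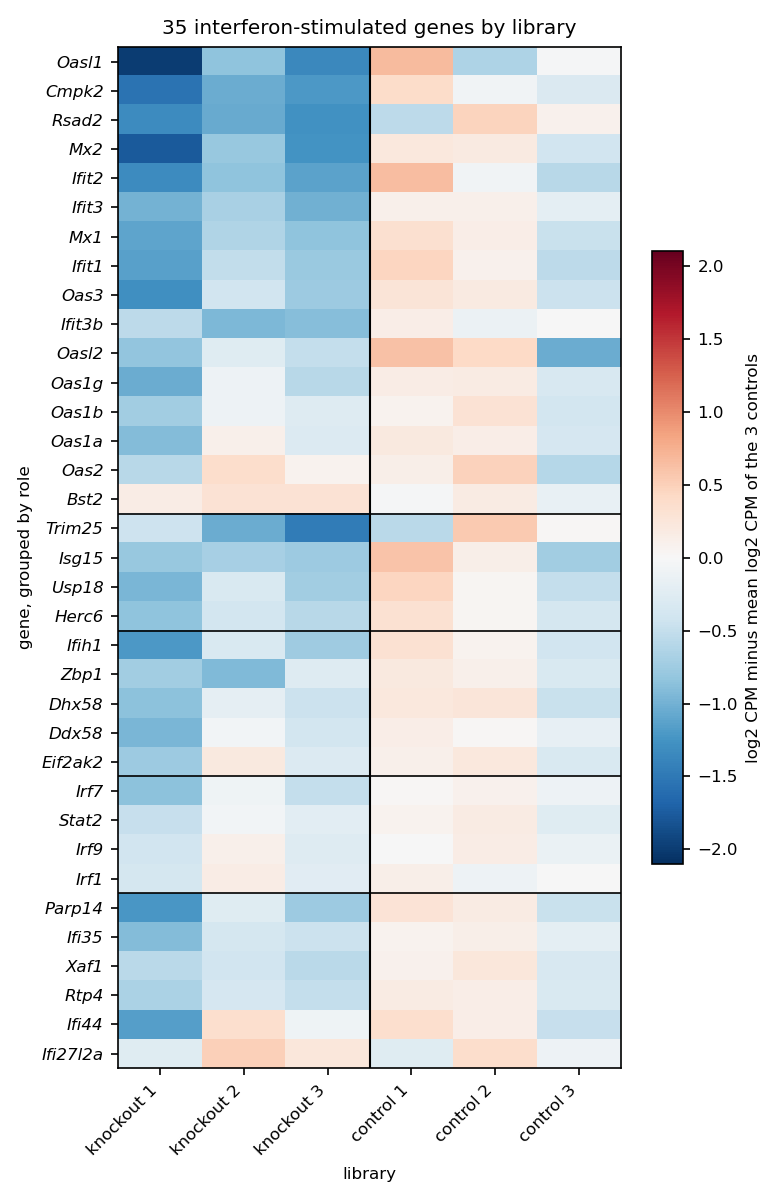
Level of the 35 interferon-stimulated genes in each library. Columns are libraries, rows are genes grouped by role (antiviral effectors, ubiquitin-like and ubiquitin system, sensors, transcription factors, further members), and colour is log2 CPM minus the mean log2 CPM of the 3 controls. Knockout replicate 1 is the lowest library for 28 genes, and control replicate 3 is the lowest control for 29.

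In bulk tissue, fewer cells of a type and less RNA per cell cannot be told apart. Epithelial markers varied between the knockout libraries. The median of 10 markers lay at -1.04, 0.08 and -0.42 log2 units from the control mean in knockout replicates 1, 2 and 3, against 0.02, 0.10 and -0.12 in control replicates 1, 2 and 3. Their summed level was 3371 to 6310 FPKM (fragments scaled to transcript length and library size) in the knockout and 5599 to 6733 FPKM in the control, and 0 of 10 passed the test. All 10 epithelial markers had negative log2 fold changes, as most members did, with a median of -0.43. At an unadjusted p under 0.05, 2 were lower, against 6.50% of all genes. The members' medians in knockout replicates 1, 2 and 3 were -0.86, -0.32 and -0.56, in the same order as these markers. In control replicates 1, 2 and 3 the members' medians were 0.18, 0.15 and -0.33, with replicate 3 lowest for these markers too. The part of epithelial cells in the members' values was not tested. By edgeR, 5 of 8 neutrophil markers and 2 of 9 monocyte and macrophage markers were higher, against 1.09% of all genes, and 4 of 8 smooth muscle markers were lower, against 0.670% of all genes. Without knockout replicate 3, control replicate 1 or control replicate 2, 0 markers of these 3 lists passed. Without control replicate 3, 0 neutrophil, 0 macrophage and 2 smooth muscle markers passed. Without knockout replicate 2, 8 neutrophil, 7 macrophage and 8 smooth muscle markers passed, and without knockout replicate 1 the counts were 5, 2 and 8. At an unadjusted p under 0.05, 7 neutrophil and 9 macrophage markers were higher, against 9.48% of all genes. At that p, 8 smooth muscle markers were lower, against 6.50% of all genes. Without knockout replicate 3 the counts were 7, 8 and 8, with 3.75% of all genes lower. For neutrophils the median stood at 4.48, 2.27 and 3.83 log2 units in knockout replicates 1, 2 and 3, against 0, 0 and 0.02 in control replicates 1, 2 and 3. Smooth muscle markers had a median log2 fold change of -1.82. For T and NK cells, B and plasma cells, endothelium, fibroblasts and red blood cells the medians were 0.50, 1.10, 0.92, 0.95 and 2.69, with 0 markers past the threshold in each of these lists. Without knockout replicate 2, 6 of 6 fibroblast, 3 of 6 endothelial and 3 of 4 red blood cell markers were higher. In that setting 1 of 10 epithelial markers was lower, T, NK, B and plasma cell lists had 0, and 1314 genes were higher and 511 lower over the whole table. Leaving out any other library gave 0 for all these lists. Summed neutrophil markers were 100.3 to 715.9 FPKM in the knockout and 45.3 to 97.3 FPKM in the control. Of these sums, Ly6g alone made 65.7 to 385.5 FPKM in the knockout and 44.3 to 96.1 FPKM in the control. The groups overlapped for Ly6g. S100a9 stood at 18.6 to 179.3 FPKM in the knockout and 0 to 0.469 FPKM in the control, without overlap. Summed macrophage markers were 174.8 to 240.3 FPKM in the knockout and 76.7 to 88.8 FPKM in the control. Mpo, which marks neutrophil precursors, had 2 reads in knockout replicate 3 and 0 in the other libraries. The part of these cells in the members' values was not tested.

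**Figure D3:**
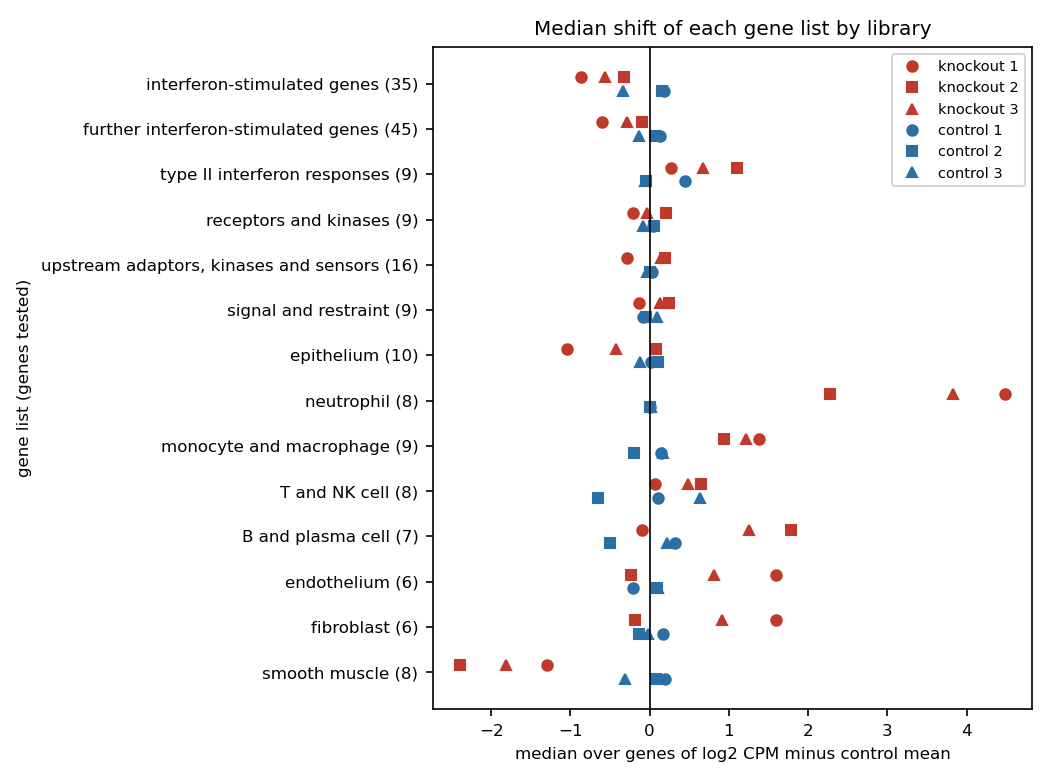
Median shift of each gene list by library. The x axis is the median over the genes of a list of log2 CPM minus the control mean, rows are gene lists with the number tested, red symbols are knockout and blue symbols control libraries. The interferon-stimulated genes lie at -0.86, -0.32 and -0.56 in the knockout libraries, while neutrophil markers lie at 4.48, 2.27 and 3.83.

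The ligands were almost unread. Of 20 genes for type I and type III interferons, 19 had 0 reads in all 6 libraries, Ifnb1 and every Ifna gene among them, and 3 counts, the limit that a count of 0 allows, correspond to 0.173 to 0.219 CPM in a library, for counting error only. Ifnl3, a type III interferon, had 0 reads in the knockout and 3 in the control libraries. Ifng, the type II interferon made by T and NK cells, had 3, 9 and 15 reads in knockout replicates 1, 2 and 3 and 0 in each control library. Set against 3 counts over the whole control group, the pooled knockout reads of Ifng were at least 9.96-fold higher. This bound allows for counting error in the control alone, not for counting error in the knockout or variation between samples. Ifng was too rare to pass the filter for the edgeR test. DESeq2, run without that filter, called Ifng higher with all libraries and called 0 ligands without knockout replicate 3. Without the filter edgeR called 0 ligands.

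The receptors and kinases had a median log2 fold change of 0.04 over 9 genes, with 0 past the threshold and 1 at an unadjusted p under 0.05 in each direction. Ifnar1, the first chain of the type I receptor, had 65.8, 67.9 and 68.0 CPM in knockout replicates 1, 2 and 3, against 57.1, 54.8 and 67.0 CPM in control replicates 1, 2 and 3. Ifnar2, the other chain, stood at 51.4, 16.6 and 31.1 CPM in the knockout, against 14.1, 11.5 and 7.54 CPM in the control. The groups did not overlap for Ifnar2, and its log2 fold change of 1.58 ± 0.44 (SE) was not past the threshold (adjusted p = 0.144, edgeR). By DESeq2 the adjusted p of Ifnar2 was 0.0137. Its highest library was knockout replicate 1, in which most members were lowest. The type II receptor chains Ifngr1 and Ifngr2, the most abundant of the list, had log2 fold changes of -0.07 and 0.02.

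Upstream of interferon, 16 sensors, adaptors and kinases had a median of 0.03, and 0 passed the test (1 in each direction at an unadjusted p under 0.05). Irf3, the factor that starts interferon transcription, was within 51.2 to 70.3 CPM in the knockout and 56.4 to 67.1 CPM in the control. Tbk1, the kinase that activates Irf3, stood at 61.5, 70.6 and 64.7 CPM in the knockout, against 93.8, 81.6 and 85.2 CPM in the control (adjusted p = 0.183, edgeR). The groups did not overlap. Tmem173, which encodes the adaptor STING, stood at 75.7, 25.5 and 48.8 CPM in the knockout, against 10.6, 15 and 10.3 CPM in the control. Its log2 fold change of 2.07 ± 0.40 (SE) was not past the threshold (adjusted p = 0.0645, edgeR), while DESeq2 gave an adjusted p of 8.37e-05. Among 9 genes of signalling and restraint the median was 0.07, with 7 positive and 2 negative, and 0 passed. At an unadjusted p under 0.05, 3 were higher and 0 lower, against 9.48% of all genes higher, and without knockout replicate 3 or any 1 control library there was 1. Without knockout replicate 2, 2 were past the threshold. Socs3, an inhibitor of cytokine receptors that signal through Stat3, had 393.6, 199.0 and 280.9 CPM in the knockout, against 53.9, 99.0 and 44.8 CPM in the control (adjusted p = 0.0521, edgeR, and 7.3e-06, DESeq2). Irf2, a repressor that competes with Irf1, had a log2 fold change of -0.04.

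The 4 transcription factors among the members had negative log2 fold changes, from -0.46 to -0.14, with 0 at an unadjusted p under 0.05. Irf9, the DNA-binding subunit of the complex with Stat2, had 81.7, 116.1 and 88.8 CPM in knockout replicates 1, 2 and 3, against 106.3, 120.0 and 97.4 CPM in control replicates 1, 2 and 3. Its log2 fold change was -0.18, with a 95% interval of -0.60 to 0.24. Stat2 had a log2 fold change of -0.25 (-0.69 to 0.18) and Irf1, which also responds to type II interferon, of -0.14 (-0.56 to 0.27). Irf7, the factor that amplifies type I interferon production, stood at 160.8, 273.6 and 205.6 CPM in the knockout, against 295.6, 310.6 and 271.8 CPM in the control. Knockout replicate 2 slightly exceeded control replicate 3, so the groups of Irf7 overlapped, at a log2 fold change of -0.46 (-0.97 to 0.05). Without knockout replicate 2 it was -0.68 (adjusted p = 0.0549, edgeR), against an adjusted p of 0.364 with all libraries. All 4 factors had intervals that include 0.

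The 5 sensors had negative values throughout, at a median log2 fold change of -0.51, and 0 passed the test. Ifih1 (MDA5, a sensor of long double-stranded RNA) stood at 94.2, 174.9 and 130.4 CPM in the knockout, against 272.4, 230.4 and 165.8 CPM in the control. Only knockout replicate 2 reached the range of the control libraries. Its log2 fold change was -0.74, with a 95% interval of -1.41 to -0.07 (adjusted p = 0.264, edgeR). Ddx58 (RIG-I, a sensor of RNA ends) and Dhx58 (LGP2, their regulator) had -0.43 and -0.51, with intervals that include 0. Eif2ak2 (PKR, a kinase that stops translation) had 77.5, 152.8 and 107.7 CPM in the knockout, against 142.7, 153.7 and 105.3 CPM in the control. Zbp1, a sensor of Z-form nucleic acid that can trigger cell death, stood at 102.9, 89.6 and 140.8 CPM in the knockout, against 197.3, 184.0 and 136.6 CPM in the control. Zbp1 was an exception to the order of the knockout libraries, with replicate 3 above replicates 1 and 2.

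The antiviral effectors held the widest differences. Of 16, 15 had negative values, at a median log2 fold change of -0.82, and 8 had every knockout library below every control library, against 10.4% of all genes. Cmpk2, a mitochondrial nucleotide kinase (chromosome 12, 26469204 to 26479835, GRCm38), had 30.4, 43.6 and 39.0 CPM in knockout replicates 1, 2 and 3, against 117.1, 85.6 and 72.8 CPM in control replicates 1, 2 and 3. Every knockout library was below the lowest control. The log2 fold change was -1.29 ± 0.23 (SE; adjusted p = 0.0511, edgeR's quasi-likelihood test), and over the alternatives the adjusted p ran from 9.54e-05 to 0.236. Its neighbour Rsad2 (viperin, which makes a chain-terminating nucleotide; chromosome 12, 26442753 to 26456452) stood at 26.1, 31.4 and 26.9 CPM in the knockout, against 44.6, 90.5 and 69.7 CPM in the control. The groups did not overlap, and the control libraries spread more than the knockout libraries. Its log2 fold change was -1.28 ± 0.27 (SE; adjusted p = 0.0735, edgeR).

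The Ifit genes, whose proteins bind foreign RNA and block its translation, lie near each other on chromosome 19. All 4 were lower at an unadjusted p under 0.05, against 6.50% of all genes, and 0 had an adjusted p under 0.05. Ifit3 stood at 39.9, 50 and 39.4 CPM in the knockout, against 86.0, 85.9 and 68.9 CPM in the control, with a log2 fold change of -0.90 ± 0.16 (SE; adjusted p = 0.0555, edgeR). The groups of Ifit3 did not overlap, and both spread little. Ifit3b stood at 21.1, 15.9 and 16.6 CPM in the knockout, against 34.2, 28.2 and 30.6 CPM in the control. Unlike most members, Ifit3b was highest among the knockout libraries in replicate 1. Ifit2 stood at 211.2, 293.7 and 242.5 CPM in the knockout, against 828.8, 497.7 and 352.4 CPM in the control. The control libraries of Ifit2 spread 2.35-fold, and the lowest of them was still above every knockout library. Ifit1 stood at 114.7, 177.7 and 147.8 CPM in the knockout, against 349.5, 272.2 and 173.2 CPM in the control, and its groups touched at control replicate 3 and knockout replicate 2.

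The Mx genes encode GTPases that trap viral nucleoproteins. Mx2 stood at 10.4, 20.6 and 15 CPM in the knockout, against 42.3, 41.1 and 27.3 CPM in the control. Its log2 fold change was -1.27 ± 0.30 (SE; adjusted p = 0.0974, edgeR). Mx1 stood at 27.5, 38.6 and 33.4 CPM in the knockout, against 75.1, 65.9 and 43.1 CPM in the control (adjusted p = 0.139, edgeR). The groups overlapped for neither. Mx2 is annotated as a polymorphic pseudogene in GENCODE M21, as is Oas1b, since inbred strains carry different alleles.

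**Figure D4:**
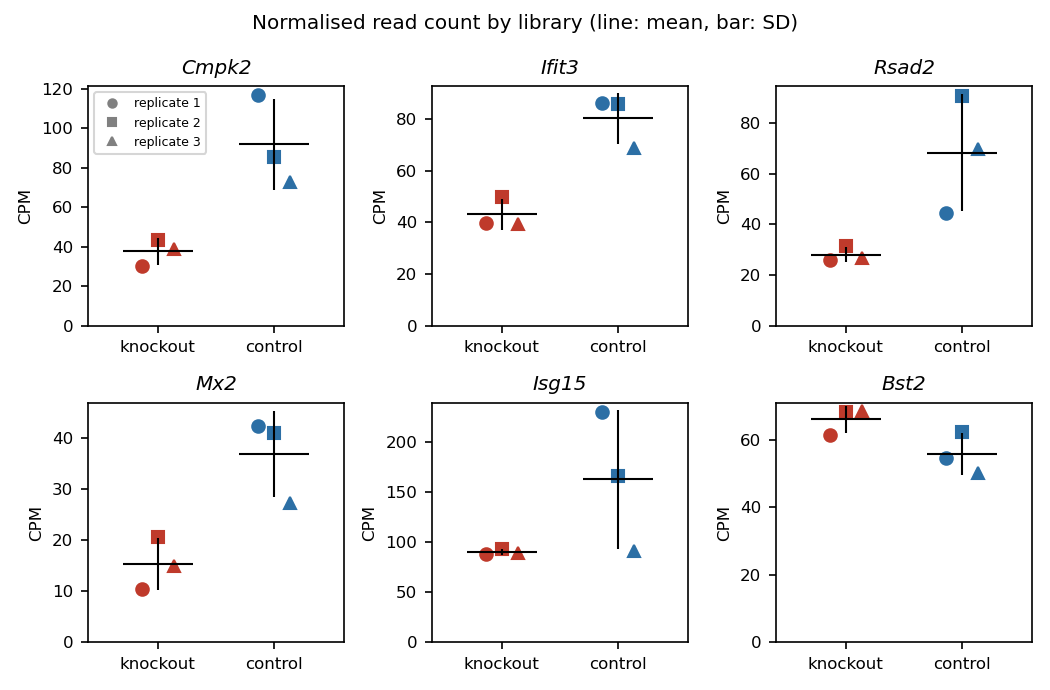
Normalised read count (CPM, y axis) of 6 members by group. Each symbol is a library with its replicate number by shape, the horizontal line is the group mean and the vertical bar the SD (n = 3 each). Knockout and control libraries are separate for Cmpk2, Ifit3, Rsad2 and Mx2, while control replicate 3 of Isg15 lies at 91.7 CPM beside the knockout libraries and Bst2 runs the other way.

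The oligoadenylate synthetases, which activate RNase L on double-stranded RNA, were the least uniform family. All 7 genes of the Oas and Oasl type had negative fold changes, from -1.43 (Oasl1) to -0.06 (Oas2), and lie on chromosome 5. Oasl1, a family member without that enzyme activity that restrains Irf7 translation, stood at 28.9, 64.5 and 45 CPM in the knockout, against 184.5, 73.6 and 114.3 CPM in the control. The groups of Oasl1 did not overlap, but its interval was wide, from -2.41 to -0.45 (adjusted p = 0.156, edgeR). Oasl2 stood at 295.0, 440.0 and 373.6 CPM in the knockout, against 807.8, 703.9 and 256.0 CPM in the control. Control replicate 3 was the lowest of all libraries for Oasl2. Oas2 stood at 117.5, 226.8 and 184.8 CPM in the knockout, against 190.7, 244.3 and 115.9 CPM in the control, and its log2 fold change changed sign in 4 of the alternatives. Oas3 had a log2 fold change of -0.80 (-1.49 to -0.12), while Oas1a, Oas1b and Oas1g had -0.33, -0.38 and -0.55 with intervals that include 0.

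Bst2 (tetherin, which holds budding virus at the cell surface) had the highest fold change of the members. It stood at 61.5, 68.2 and 68.4 CPM in the knockout, against 54.7, 62.3 and 50 CPM in the control. Only knockout replicate 1 lay within the control range, and the log2 fold change was 0.25 (-0.08 to 0.57; adjusted p = 0.449, edgeR). Bst2 also marks plasmacytoid dendritic cells in the mouse. Of 8 other markers of these cells, 3 were too rare to be tested, with at most 4 reads of Siglech, 3 of Cox6a2 and 21 of Ccr9 in any library. Irf8, which B cells and macrophages also express, stood at 53.3, 150.8 and 106.4 CPM in the knockout, against 109.1, 98.3 and 97.2 CPM in the control. Of the 5 markers that could be tested 0 passed, and the summed level of all 8, of which Klk1 alone made 76.1 to 274.7 FPKM in the knockout and 95.8 to 125.1 FPKM in the control, was 88.3 to 298.1 FPKM in the knockout and 115.5 to 145.3 FPKM in the control. The part of these cells in the values of Bst2 was not tested.

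The ubiquitin-like system was lower in value throughout, with a median log2 fold change of -0.77 over 4 genes. All 4 had an unadjusted p under 0.05, against 6.50% of all genes lower, and 0 were past the threshold. Isg15, a ubiquitin-like protein that is attached to other proteins (chromosome 4, 156199424 to 156200818, GRCm38), stood at 88.0, 93.3 and 89.7 CPM in the knockout, against 230.8, 166.5 and 91.7 CPM in the control. The knockout libraries were nearly equal, and control replicate 3 stood among them. The log2 fold change was -0.85 (-1.60 to -0.10; adjusted p = 0.256, edgeR). Usp18, which removes Isg15 and blocks signalling at Ifnar2, stood at 34.9, 55.0 and 41.0 CPM in the knockout, against 93.6, 70.4 and 48.4 CPM in the control. Herc6, the ligase for Isg15 in the mouse, had a log2 fold change of -0.63 (-1.14 to -0.11), and 23.8% of its 50-base words also occur in the overlapping Gm45193, so its values are uncertain. Trim25, a ligase that acts on RIG-I, ordered the libraries differently from the other members. It stood at 190.3, 124.2 and 92.5 CPM in the knockout, against 171.9, 374.7 and 260.2 CPM in the control. Knockout replicate 1 was the highest of its group for Trim25 and control replicate 1 the lowest.

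Among the 6 further members, 3 had every knockout library below every control library, against 10.4% of all genes. Ifi35 stood at 36.8, 53.1 and 50.4 CPM in the knockout, against 72.9, 75.1 and 60 CPM in the control. Rtp4, which has been described as a brake on the response, stood at 57.4, 71.1 and 64.1 CPM in the knockout, against 103.2, 101.1 and 72.9 CPM in the control. Xaf1, a pro-apoptotic protein, had a log2 fold change of -0.53 (-0.95 to -0.11). In each of the 3, the lowest control was replicate 3. Exons of other genes cover 16.8% of the exonic bases of Ifi35 (Gm11626, opposite strand) and 13.9% of those of Rtp4 (Gm45338), which leaves these values uncertain too. Parp14, an ADP-ribosyltransferase, had a log2 fold change of -0.73 (adjusted p = 0.311, edgeR). Ifi44 stood at 44.7, 127.5 and 94.2 CPM in the knockout, against 127.4, 109.6 and 71.3 CPM in the control. The knockout libraries of Ifi44 spread 2.86-fold, more than for any other member. Ifi27l2a had a log2 fold change of 0.17 (-0.43 to 0.76) and reversed its sign without knockout replicate 2.

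**Figure D5:**
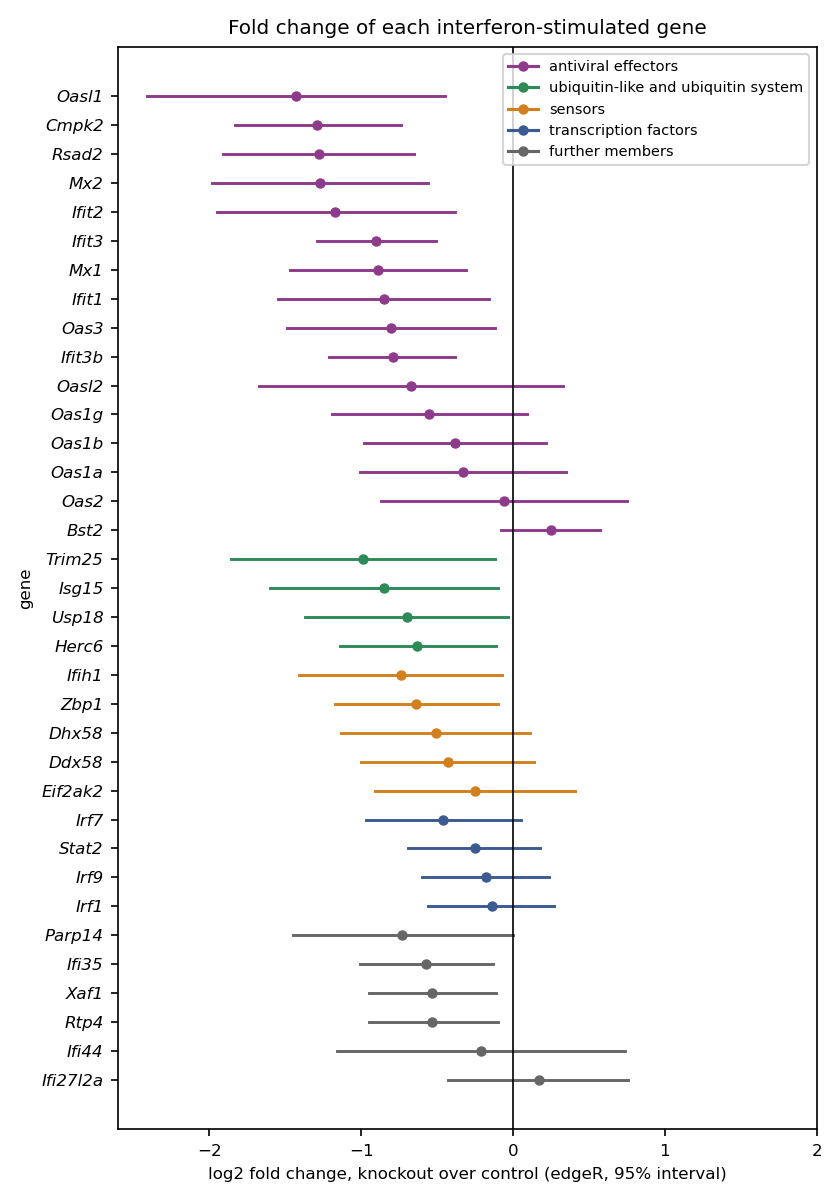
Log2 fold change of each of the 35 members, knockout over control, by edgeR (x axis), with its 95% interval as a line. Rows are genes, coloured and grouped by role. Of 35 points, 33 are below 0, from -1.43 for Oasl1 to 0.25 for Bst2, and the transcription factors have a median of -0.22 against -0.82 for the antiviral effectors.

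Compared per transcript length, Isg15 and Ifi27l2a were the most abundant members. Ifi27l2a averaged 178.9 ± 33.0 FPKM in the knockout and 153.4 ± 37.2 FPKM in the control (SD, n = 3 each). Isg15 averaged 122.5 ± 6.0 FPKM in the knockout and 209.5 ± 88.0 FPKM in the control. Ifi27l2a was thus number 1 in the knockout and Isg15 in the control, where the levels of these neighbours did not differ beyond their spread. The lowest members in the control were Mx2, at 3.06 ± 0.79 FPKM in the knockout and 7.08 ± 1.59 FPKM in the control, and Oas1b, at 4.78 ± 0.71 FPKM in the knockout and 5.95 ± 1.44 FPKM in the control. These neighbours did not differ beyond their spread in the control. Bst2 was number 3 in the knockout at 88.5 ± 4.2 FPKM and 6 in the control at 70.9 ± 8.4 FPKM. Cmpk2 was number 22 in the knockout and 17 in the control. The summed level of all 35 was 948.6, 1157 and 1079 FPKM in knockout replicates 1, 2 and 3, against 1675, 1590 and 1096 FPKM in control replicates 1, 2 and 3. Control replicate 3 lay within the range of the knockout libraries in that sum. FPKM are scaled to library totals alone.

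A list of 46 further interferon-stimulated genes had a median log2 fold change of -0.29 over the 45 tested, with 34 negative and 11 positive. Of these, 1 rose and 1 fell by edgeR. Ifit1bl2, a relative of Ifit1 on the same chromosome, fell to 6.69, 18.7 and 14.1 CPM in the knockout, against 77.4, 51.8 and 90.2 CPM in the control (log2 fold change -2.48 ± 0.40, SE; adjusted p = 0.0401, edgeR). Of the 50-base words of Ifit1, 7.06% occur in Ifit1bl2. Ms4a4c, a membrane protein of leukocytes, rose to 3.28, 6.06 and 4.68 CPM in the knockout, against 1.24, 0.694 and 1.03 CPM in the control (2.23 ± 0.38, SE; adjusted p = 0.0471, edgeR). Neither was past the threshold without knockout replicate 3 (adjusted p = 0.199 and 0.217, edgeR), nor without any 1 control library. Ifitm3, which restricts viral fusion, stood at 330.5, 101.6 and 208.8 CPM in the knockout, against 72.9, 78.3 and 58.6 CPM in the control (adjusted p = 0.118, edgeR, and 0.00481, DESeq2). Ifitm3 was highest in knockout replicate 1, where fibroblast and endothelial markers were highest too, with a median of 1.59 log2 units for each list. Their part in Ifitm3 was not tested.

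Genes that respond to type II interferon had a median log2 fold change of 0.61 over 9 tested, with 7 positive and 2 negative, 0 past the threshold and 5 higher at an unadjusted p under 0.05, against 9.48% of all genes. That count of 5 was 2 without knockout replicate 2, knockout replicate 3, control replicate 2 or control replicate 3. Ifng itself is on this list and entered the test without knockout replicate 1. In that setting 7 of 10, Ifng among them, were higher at an unadjusted p under 0.05 and 1 was past the threshold. DESeq2 called 3 of 10 higher, Ifng among them, against 881 of 18154 genes, and 0 without knockout replicate 3. Nos2, the inducible nitric oxide synthase, stood at 222.3, 246.8 and 233.5 CPM in the knockout, against 116.7, 87.9 and 35.7 CPM in the control (adjusted p = 0.125, edgeR). Cxcl9, a chemokine for activated T cells, stood at 7.74, 26.0 and 19.4 CPM in the knockout, against 7.23, 4.11 and 6.08 CPM in the control (adjusted p = 0.156, edgeR). The groups overlapped for neither gene, and by DESeq2 the adjusted p was 0.00659 for Nos2 and 0.0188 for Cxcl9. Gbp2 had a log2 fold change of -0.06. The difference between this list and the 35 members was not tested.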

How the data were processed

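The deposited table has 34745 genes with counts and FPKM for 3 knockout and 3 control libraries, per the file headers. The authors' counts are whole numbers; the FPKM deposited by the authors follow count over library total, up to 1 factor per gene, within 0.001 log2 units for 100% of 11507 genes with at least 50 reads in each library. HISAT2 2.0.4, StringTie 1.3.0, edgeR and the builds GRCh38 and mm8 are named in the submitters' processing notes, without roles. Of the 35 members, 30 have the start and end of GENCODE M21 (GRCm38), the build used for coordinates here. The roles of these tools, strandedness and the handling of multi-mapping reads: not given in the sources used here.

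Counts were tested with edgeR 4.0.16 in R 4.3.3 (TMM, edgeR's filter on low counts, quasi-likelihood test of knockout against control, two-sided, Benjamini-Hochberg over 15819 genes, threshold 0.05). CPM are after TMM. Intervals are 95%. Alternatives were DESeq2 1.42.0, other scalings, no filter, limma 3.58.1 on log2(FPKM + 1) and log2(FPKM + 0.1) for genes with a mean of at least 0.1 FPKM, a block for the replicate number, and each library left out in turn. DESeq2 without knockout replicate 3, and cell type marker counts without each library, were added after seeing the data. Medians by library use log2(CPM + 0.25). With 3 libraries a group, an exact permutation test has 0.1 as its smallest p and was not used. The scripts were tested on simulated data.

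The members and gene lists were chosen with earlier results of these data known. All members are named. Of each other pathway list, the genes past the threshold are named, otherwise the 2 most abundant. Ifnar1, Ifnar2, Tmem173, Ifitm3, Cxcl9, Siglech, Cox6a2, Ccr9 and Mpo were named after their values were seen. Promoters are from RefSeq (GRCm38.p6), with 25 of 35 members matched by symbol.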

Additional observations from a re-analysis of the deposited data

How the results depend on the processing

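The median log2 fold change of the 35 members was negative under every alternative run, from -0.78 to -0.48 when 1 library was left out, and from -0.64 to -0.48 under the others. The number of members past the threshold was 0 lower in the reported test, 0 with a replicate block, RLE or upper-quartile factors, 8 with DESeq2, 2 with DESeq2 without knockout replicate 3, 1 with library totals alone (Cmpk2), 1 without a filter on low counts (Cmpk2), and 1 and 2 with limma on log2(FPKM + 1) (Ifit3) and log2(FPKM + 0.1) (Ifit3 and Cmpk2). Leaving out 1 library gave 0 to 5, the 5 without knockout replicate 2 (Cmpk2, Ifit3, Mx2, Oasl1 and Rsad2). No alternative called a member higher. Over all genes, those past the threshold numbered 172 higher and 106 lower. DESeq2 gave 881 and 555, DESeq2 without knockout replicate 3 gave 399 and 239, and leaving out 1 library gave 6 to 1314 higher and 9 to 511 lower. The other pathway and interferon-stimulated lists had 1 higher and 1 lower; DESeq2 gave 11 and 6, DESeq2 without knockout replicate 3 gave 6 higher, no filter and limma on log2(FPKM + 0.1) gave 2 higher, and leaving out 1 library gave 0 to 9 higher and 0 to 5 lower. For these differences the cause was not tested. Oas2 changed sign with limma (0.03 at each offset), without knockout replicate 1 (0.16) and without control replicate 2 (0.20), with -0.31 to 0.20 over the libraries left out. Ifi44 did so without knockout replicate 1 (-0.57 to 0.10) and Ifi27l2a without knockout replicate 2 (-0.02 to 0.36). With CT required after the second GAAA block, 28% of matched members held the ISRE; with 1 or 2 bases allowed between the blocks, 64% did.

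With the replicate number as a block, 4 genes were higher and 5 lower over the whole table, 0 and 0 of the other lists, and the smallest adjusted p of a member was 0.14 (edgeR). Deviations of same-numbered libraries correlated at 0.052, -0.176 and 0.010 for replicates 1, 2 and 3. For libraries with different numbers the correlations ran from -0.205 to 0.196. With 3 libraries a group, whether same-numbered libraries share more than a number could not be told from these values. Each member had at least 159 reads in every library, and over the members the median squared deviation of a control library from a weighted sum of the other controls was 21.1 to 102 times counting noise.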

Other observations

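Ifi44l, which lies next to Ifi44 on chromosome 3 (151758737 to 151762892, GRCm38), was read in the knockout alone. It had 22, 323 and 244 reads in knockout replicates 1, 2 and 3 and 0 in each control library. The pooled knockout reads were at least 217.2-fold higher when 3 counts are assumed for the control group. This bound, too, leaves out counting error in the knockout and variation between samples. Ifi44l was singled out after its values were seen and was not past the threshold (edgeR, Benjamini-Hochberg adjusted p = 0.09). Ifi44 itself had reads in all 6 libraries. Ifitm1, a relative of Ifitm3, stood at 200, 33.1 and 103.9 CPM in the knockout, against 8.96, 15.1 and 13 CPM in the control (adjusted p = 0.0681, edgeR). Rnf213, a large ubiquitin ligase, stood at 174.1, 356.6 and 263.0 CPM in the knockout, against 747.4, 559.7 and 392.0 CPM in the control (adjusted p = 0.175, edgeR). Tor3a stood at 21.2, 30.6 and 27.1 CPM in the knockout, against 77.5, 35.2 and 51.1 CPM in the control (adjusted p = 0.159, edgeR). The groups did not overlap for these 3 genes, which were likewise named after their values were seen. By DESeq2 the adjusted p was 1.33e-05 for Ifi44l, 4.71e-06 for Ifitm1, 0.0332 for Rnf213 and 0.0333 for Tor3a.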
